A study of Homo sapiens with 12 samples.

Results

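The genes described are the PEA3 subfamily of ETS transcription factors (ETV1, ETV4 and ETV5) together with feedback inhibitors of the ERK pathway: the Sprouty genes SPRY1, SPRY2 and SPRY4, the Sprouty-related gene SPRED1, and the dual-specificity phosphatase genes DUSP4, DUSP5 and DUSP6. They were chosen by gene symbol, with earlier results of these data known. All 10 were found among the 23228 genes of the count tables and passed the filter on low counts that left 14571 genes for testing. The RNA came from MDA-MB-468, an established breast cancer cell line of basal, triple-negative type, and was sequenced as poly(A) RNA in 12 libraries, 3 (A, B and C) for each of 4 groups. The DMSO group received vehicle from day -5. The ipatasertib group received DMSO over the same days and then 5 µM ipatasertib, an inhibitor of the kinase AKT, from day 0. The tazemetostat group received 5 µM tazemetostat from day -5 on. Tazemetostat blocks EZH2, which places the repressive histone methyl mark as part of the Polycomb complex PRC2. The combination group received tazemetostat from day -5 and both drugs at 5 µM each from day 0. All groups were in medium with 2% serum from day 0, and RNA was collected 24 h later. The study uses 1 cell line and 1 dose and time for each drug.

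ERK is the last kinase of the cascade that runs from receptor tyrosine kinases through RAS, RAF and MEK. Its activity raises transcription of the PEA3 factors, and it also raises transcription of the genes that switch the cascade off. Sprouty and SPRED proteins act upstream, at the steps between the receptor and RAF, and the dual-specificity phosphatases remove the activating phosphates from ERK itself. Capicua (CIC), a repressor that ERK signalling inactivates, holds several of these genes down and binds an octamer of the form TGAATGAA or TGAATGGA, or their variants TCAATGAA and TCAATGGA. Transcripts of several genes of this set, though not of all, are widely used as a readout of ERK activity in epithelial tumours. Neither ERK phosphorylation nor protein was measured here.

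The promoter windows of ETV1 and DUSP6 are shown because they hold Capicua octamers. Both genes rose with ipatasertib and with the combination. With tazemetostat ETV1 rose and DUSP6 fell, though the DUSP6 call was lost in some alternatives given below. Windows were read from a RefSeq table on GRCh38.p14 that spans 250 bases before to 50 bases after a gene's start. It held 14 windows for 6 of the 10 genes, and ETV4, ETV5, DUSP4 and DUSP5 were not among them. The part printed runs from 250 bases before to 30 bases after the start, 5′ to 3′ on the gene's strand, with the octamers in capitals. The ETV1 window is chr7:13991396-13991675 on the minus strand, 1 of 6 start sites of that gene in the table, and the DUSP6 window is chr12:89352472-89352751 on the minus strand.
ETV1: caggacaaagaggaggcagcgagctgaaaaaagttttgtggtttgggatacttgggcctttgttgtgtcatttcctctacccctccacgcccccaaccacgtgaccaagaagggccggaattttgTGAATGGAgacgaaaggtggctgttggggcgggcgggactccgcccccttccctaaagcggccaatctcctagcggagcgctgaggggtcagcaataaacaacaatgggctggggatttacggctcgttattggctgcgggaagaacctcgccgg
DUSP6: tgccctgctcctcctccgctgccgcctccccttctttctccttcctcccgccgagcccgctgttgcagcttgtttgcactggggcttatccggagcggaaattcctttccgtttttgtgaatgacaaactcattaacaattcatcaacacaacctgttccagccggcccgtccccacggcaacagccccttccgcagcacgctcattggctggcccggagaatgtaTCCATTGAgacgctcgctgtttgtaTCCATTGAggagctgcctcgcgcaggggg
In ETV1 the match is TGAATGGA and begins at position -125 from the start. In DUSP6 the octamer TCAATGGA lies on the opposite strand, so that it reads TCCATTGA in the window, and it occurs at positions -24 and 2. At least 1 of the 4 octamers, searched on both strands, was found in 3.77% of all 35116 windows of this length, and 2 or more matches in 0.327%. By gene the share with a match was 4.62% of 27305, and ETV1 had 6 windows in which to match. None was found in the windows of SPRY1, SPRY2, SPRY4 or SPRED1. These genes without a match also rose with ipatasertib (log2 fold changes of 0.905, 1.13, 1.70 and 0.69). With the combination SPRY1, SPRY2 and SPRED1 rose and SPRY4 was not called. A link between a match and a change was not tested. Matches to 4 other motifs were searched in the same way on both strands. The ETS motif CCGGAAG occurred once, in 1 of the windows of SPRY1 (10.3% of all windows hold it). The AP-1 motif TGAGTCA (4.95% of all windows), the CRE motif TGACGTCA (1.85%) and the FOXO motif GTAAACA (3.42%) did not occur in the windows of these 6 genes. A match describes letters only, and binding was not measured.

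Counts in genes ranged from 12981622 to 28746965 per library, and the combination libraries were the shallowest (12981622 to 17948209). The lowest count of any of the 10 genes in any library was 52. Reads assigned to no feature were 19.9% ± 1.43 of all lines of the tables with DMSO, 23.3% ± 1.01 with ipatasertib, 21.1% ± 1.65 with tazemetostat and 25.2% ± 0.949 in the combination group (SD, n = 3). The A libraries were unlike the others of their group. Over genes, chi-square divided by its degrees of freedom came to 4.36 to 15.5 where A was one of the pair and to 2.41 to 3.61 between B and C. The part of these differences in the results below was not tested, but the counts of the 10 genes called were also made without the A libraries. Nothing in the labels tells whether the letters mark separate cultures, and p-values here reflect only the spread between these libraries, which may be technical. Epithelial and basal markers were present in all groups (EPCAM at 417 to 541 CPM and KRT5 at 442 to 1720 CPM as group means). Of 6 fibroblast markers 5 were under 1 CPM with DMSO and with ipatasertib, and 4 with tazemetostat and with the combination; COL1A2, DCN and LUM had no read with DMSO. Their summed level was 9.72 to 11.7 CPM with DMSO, 5.23 to 5.53 with ipatasertib, 15.7 to 19.3 in the tazemetostat group and 9.48 to 11.4 in the combination group. Of 6 endothelial markers 3 or 4 were under 1 CPM, and their summed level was 24.9 to 25.9 CPM with DMSO, 32.4 to 34.1 with ipatasertib, 22.1 to 26.9 in the tazemetostat group and 27.4 to 30.5 in the combination group. Of 6 leukocyte markers all but CD14 (57.6 to 88.2 CPM) were under 1 CPM in every group.

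Levels are given in CPM (counts scaled to a common library size) on totals scaled by the trimmed mean of M-values (TMM), and each was compared only within a gene, since CPM is not corrected for gene length. Changes are log2 fold changes with their standard error (SE), and a gene was called changed at a Benjamini-Hochberg adjusted p under 0.05 over all 14571 genes in edgeR's quasi-likelihood test. In bulk RNA, fewer cells expressing a gene and less RNA per cell cannot be told apart. The coefficient of variation of the 10 genes within a group had a median of 5.89% and ranged from 0.513% (DUSP4 with tazemetostat) to 21.2% (SPRED1 with tazemetostat).

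With ipatasertib alone, 9 of the 10 genes rose and DUSP4 fell. In the background, 47.1% of all tested genes were called in this comparison, 24% higher and 23.1% lower. The libraries of the groups did not overlap for any of the 10, as for 58.9% of all tested genes. The median log2 fold change of the 10 genes was 1.245, against 0.004 over all tested genes. With tazemetostat alone, 7 of the 10 fell, ETV1 and SPRY1 rose, and SPRED1 was not called. The groups did not overlap for 9 of the 10. The background was 47.2% called, 25.9% higher and 21.3% lower, with 56.8% not overlapping, and the median log2 fold change was -0.391 for the 10 genes and 0.009 for all. With the combination, 8 of the 10 rose against DMSO, DUSP4 fell and SPRY4 was not called. The groups did not overlap for 10 of the 10. Here 64.4% of tested genes were called, 34.4% higher and 30% lower, with 68.7% not overlapping, and the medians were 0.893 for the 10 genes and 0.03 for all. These 3 comparisons share the DMSO libraries. Because the set was chosen with earlier results of these data known, the shares beside the background describe it and do not test it. Without the A library of every group the same counts were 9 and 1, 2 and 8, and 8 and 1, the only new call being a fall of SPRED1 with tazemetostat.

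**Figure D1:**
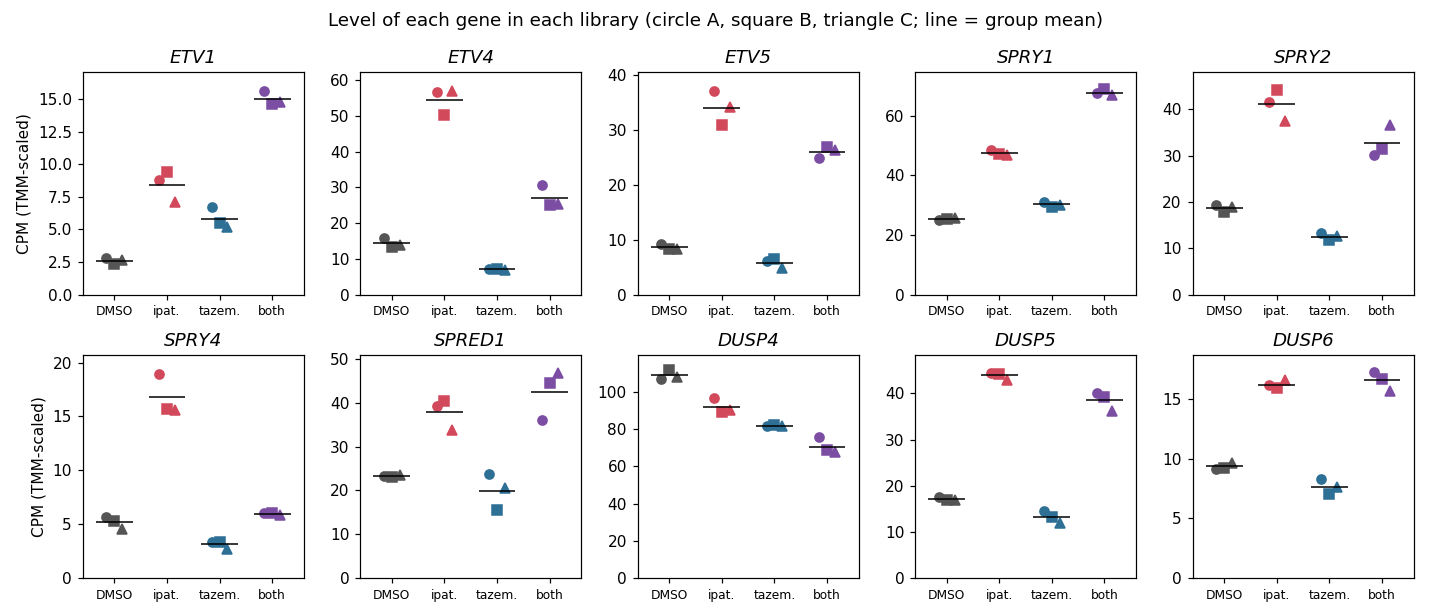
Level of each of the 10 genes in each of the 12 libraries in TMM-scaled CPM (y axis from 0, a scale of its own for each gene), with circles, squares and triangles for libraries A, B and C and a line at the group mean. The ipatasertib libraries lie above the DMSO libraries for 9 genes and below them for DUSP4, and ETV1 and SPRY1 are highest in the combination.

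Among the PEA3 factors, ETV4 is a transcription factor that promotes invasion-related genes such as matrix metalloproteases. It stood at 15.7, 13.3 and 13.8 CPM in DMSO libraries A, B and C and at 56.6, 50.4 and 56.9 CPM with ipatasertib. With tazemetostat it was at 7.28, 7.09 and 6.9 CPM, and with the combination at 30.6, 25.1 and 25.3 CPM. No group overlapped another: tazemetostat was lowest, then DMSO, the combination and ipatasertib. ETV4 rose by a log2 fold change of 1.935 ± 0.091 SE with ipatasertib (3.82-fold, edgeR adjusted p = 4.36e-13). It fell to 0.496 of the DMSO level with tazemetostat (-1.01 ± 0.108 SE in log2, edgeR adjusted p = 8.22e-08). The combination lay 1.90-fold above DMSO (edgeR adjusted p = 2.76e-08).

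ETV5, the second factor of the subfamily, was at 9.29, 8.36 and 8.37 CPM with DMSO and at 37, 30.9 and 34.2 CPM with ipatasertib. It was at 6.13, 6.5 and 4.86 CPM with tazemetostat and at 24.9, 26.8 and 26.3 CPM with the combination. The order of the groups was that of ETV4, again without overlap. The log2 fold change was 1.97 ± 0.1 SE with ipatasertib (3.92-fold, edgeR adjusted p = 1.15e-12), the largest rise of the 10 genes in that comparison. Tazemetostat lowered it (-0.575, edgeR adjusted p = 0.000362), and the combination raised it (1.58, edgeR adjusted p = 1.49e-11).

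ETV1, the remaining factor of the subfamily, rested on few reads, 52 to 78 per library with DMSO. It was at 2.77, 2.36 and 2.63 CPM with DMSO, at 8.8, 9.39 and 7.06 CPM with ipatasertib, and at 6.7, 5.49 and 5.15 CPM with tazemetostat. With the combination it reached 15.6, 14.6 and 14.8 CPM. The order therefore differed from ETV4 and ETV5: DMSO was lowest, then tazemetostat, ipatasertib and the combination, without overlap between neighbours. ETV1 rose with ipatasertib (1.68 ± 0.145 SE in log2, edgeR adjusted p = 3.72e-09) and with tazemetostat (1.14 ± 0.15 SE, edgeR adjusted p = 1.55e-06). In the combination it stood 5.77-fold above DMSO (2.53 ± 0.143 SE, edgeR adjusted p = 5.44e-13).

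**Figure D2:**
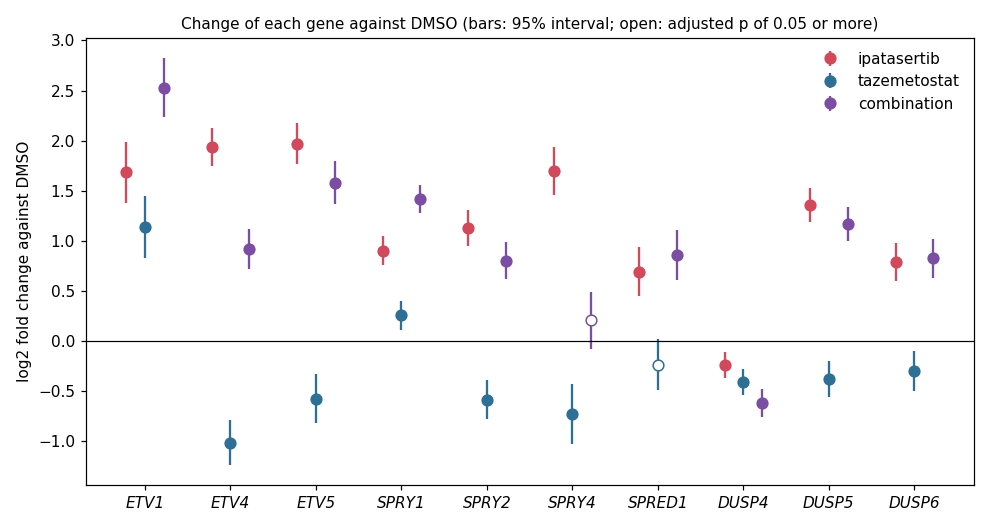
Log2 fold change of each gene against DMSO (y axis) with ipatasertib, tazemetostat and the combination, with 95% intervals; open circles did not pass the threshold. Of the 10 genes, ETV1 and SPRY1 lie above 0 in all 3 comparisons and DUSP4 below 0 in all 3.

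The Sprouty genes encode membrane-associated inhibitors that are induced by growth factor signalling and limit RAS and RAF activation. SPRY4 was at 5.64, 5.31 and 4.56 CPM with DMSO and at 18.9, 15.7 and 15.6 CPM with ipatasertib. It was at 3.35, 3.36 and 2.66 CPM with tazemetostat and at 5.98, 6.06 and 5.85 CPM with the combination. The ipatasertib libraries stood well above the rest, and the combination libraries lay just above the DMSO libraries. SPRY4 rose with ipatasertib (1.70 ± 0.117 SE in log2, edgeR adjusted p = 1.5e-10) and fell with tazemetostat (-0.73 ± 0.143 SE, edgeR adjusted p = 0.000231). Between the combination and DMSO the difference was 0.21 ± 0.137 SE, with a 95% interval of -0.08 to 0.49 (edgeR adjusted p = 0.192).

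SPRY2 was at 19.4, 17.8 and 19 CPM with DMSO, at 41.6, 44.2 and 37.5 CPM with ipatasertib, at 13.3, 11.8 and 12.6 CPM with tazemetostat and at 30.2, 31.5 and 36.6 CPM with the combination. Its groups did not overlap, and their order was tazemetostat, DMSO, combination and ipatasertib from low to high. The log2 fold changes against DMSO were 1.13 with ipatasertib (edgeR adjusted p = 1.2e-09), -0.58 with tazemetostat (edgeR adjusted p = 3.41e-05) and 0.805 with the combination (edgeR adjusted p = 9.33e-08). SPRY1 was at 25.1, 25.2 and 25.6 CPM with DMSO and 48.4, 47.1 and 46.7 CPM with ipatasertib. It was at 31.2, 29.5 and 30.1 CPM with tazemetostat and at 67.6, 69 and 66.9 CPM with the combination. Its order was that of ETV1, with the combination on top and no overlap. SPRY1 rose with ipatasertib (0.91, edgeR adjusted p = 6.29e-10), with tazemetostat (0.26, edgeR adjusted p = 0.00382) and with the combination (1.42 ± 0.068 SE, edgeR adjusted p = 5.42e-14).

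SPRED1 brings the RAS-inactivating protein neurofibromin (NF1) to the membrane. It was at 23.2, 23.1 and 23.6 CPM with DMSO, at 39.2, 40.4 and 33.7 CPM with ipatasertib, at 23.8, 15.4 and 20.6 CPM with tazemetostat and at 36.1, 44.5 and 46.9 CPM with the combination. The DMSO and tazemetostat libraries overlapped, as did the ipatasertib and combination libraries, while each of the first pair lay below each of the second. SPRED1 rose with ipatasertib (0.69 ± 0.117 SE, edgeR adjusted p = 5.01e-05) and with the combination (0.86, edgeR adjusted p = 1.73e-06). With tazemetostat the change was -0.235, with a 95% interval of -0.49 to 0.02 (edgeR adjusted p = 0.119). This value moved with single libraries: the change was -0.39 without tazemetostat library A (edgeR adjusted p = 0.0074) and -0.09 without tazemetostat library B (edgeR adjusted p = 0.539).

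The dual-specificity phosphatases divide by site and substrate: DUSP6 acts on ERK in the cytoplasm, DUSP5 on ERK in the nucleus, and DUSP4 in the nucleus on ERK and on other MAP kinases. DUSP5 was at 17.5, 16.9 and 16.9 CPM with DMSO and at 44.4, 44.2 and 43 CPM with ipatasertib. It was at 14.6, 13.1 and 12 CPM with tazemetostat and at 40, 39.3 and 36.1 CPM with the combination. The 4 groups did not overlap, and the combination lay close under ipatasertib. DUSP5 rose with ipatasertib (1.36 ± 0.08 SE, edgeR adjusted p = 1.21e-11) and with the combination (1.17, edgeR adjusted p = 3.82e-11), and fell with tazemetostat (-0.375, edgeR adjusted p = 0.00114).

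DUSP6 was at 9.15, 9.26 and 9.67 CPM with DMSO, at 16.2, 15.9 and 16.6 CPM with ipatasertib, at 8.28, 7.06 and 7.65 CPM with tazemetostat and at 17.3, 16.7 and 15.7 CPM with the combination. The ipatasertib and combination libraries overlapped, and both lay above DMSO. DUSP6 rose with ipatasertib (0.79, edgeR adjusted p = 3.25e-07) and with the combination (0.83, edgeR adjusted p = 8.82e-08). Its fall with tazemetostat was small (-0.30 ± 0.098 SE, edgeR adjusted p = 0.0164). That call was lost with unscaled library totals (-0.22, edgeR adjusted p = 0.0647), without DMSO library C (-0.28, edgeR adjusted p = 0.0609) and without tazemetostat library B (-0.26, edgeR adjusted p = 0.074).

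DUSP4 went the other way from DUSP5 and DUSP6 under ipatasertib. It was at 107, 112 and 108 CPM with DMSO, at 96.6, 89.5 and 90.3 CPM with ipatasertib, at 81.6, 82.4 and 81.8 CPM with tazemetostat and at 75.6, 69.1 and 67.5 CPM with the combination. Each step down in that order was without overlap. DUSP4 fell to 0.848 of DMSO with ipatasertib (-0.24 ± 0.064 SE in log2, edgeR adjusted p = 0.00429), to 0.754 with tazemetostat (edgeR adjusted p = 2.18e-05) and to 0.652 with the combination (-0.62 ± 0.066 SE, edgeR adjusted p = 3.61e-08). The fall with ipatasertib was smaller than that of many genes: 45.9% of tested genes changed by as much or less.

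The comparison of the combination with ipatasertib asks how cells given tazemetostat before and during ipatasertib differed from cells given ipatasertib without it. Of the 10 genes, 2 were higher in the combination (ETV1 and SPRY1), 5 were lower (ETV4, ETV5, SPRY2, SPRY4 and DUSP4) and 3 were not called. In the background 44.9% of tested genes were called, 24.2% higher and 20.7% lower. The groups did not overlap for 8 of the 10, and for 49.8% of all tested genes. SPRY4 differed most: 16.8 ± 1.89 CPM with ipatasertib and 5.96 ± 0.108 CPM in the combination group (SD, n = 3), a log2 fold change of -1.49 ± 0.126 SE (edgeR adjusted p = 1.55e-09). ETV4 was at 0.496 of its ipatasertib level (-1.01, edgeR adjusted p = 5.29e-09), and ETV1 stood 1.79-fold above its own (0.84, edgeR adjusted p = 5.07e-06). SPRY1 was 1.43-fold above its ipatasertib level (0.52, edgeR adjusted p = 1.19e-06). For DUSP6 the difference was 0.035, with a 95% interval of -0.15 to 0.22, for SPRED1 0.17 (-0.08 to 0.41) and for DUSP5 -0.19 (-0.35 to -0.03, edgeR adjusted p = 0.0544). DUSP5 passed the threshold by DESeq2 (adjusted p = 0.0472) and with RLE factors (edgeR adjusted p = 0.0464). With 1 library left out, it passed without tazemetostat library A, B or C or combination library A. Its edgeR adjusted p ranged from 0.0363 to 0.194 over all fits without 1 library. It also passed without the A libraries (edgeR adjusted p = 0.024), where SPRED1 passed as well (0.31, edgeR adjusted p = 0.0108).

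The comparison of the combination with tazemetostat asks what ipatasertib changed in cells already given tazemetostat. Here 9 of the 10 genes were higher in the combination and DUSP4 was lower. In the background 46.3% of tested genes were called, 23.2% higher and 23.1% lower, the groups did not overlap for 10 of the 10 and for 48.9% of all tested genes, and the median log2 fold change was 1.275 for the 10 genes and 0.002 for all. ETV5 rose most, from 5.83 ± 0.856 to 26 ± 0.961 CPM (SD, n = 3; log2 fold change 2.15 ± 0.112 SE, edgeR adjusted p = 9.39e-13), followed by ETV4 (1.94, edgeR adjusted p = 2.83e-12) and DUSP5 (1.55, edgeR adjusted p = 2.65e-12). SPRY4 rose by 0.93 ± 0.151 SE (edgeR adjusted p = 2.81e-05). DUSP4 fell by 0.21 on the log2 scale (edgeR adjusted p = 0.0126), a call that was lost without combination library C (-0.18, edgeR adjusted p = 0.0618).

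An interaction term tested whether the 2 drugs together gave a log2 change other than that of the singles added up. SPRY4 was the 1 gene of the 10 that passed, a share of 10% against 12% of all tested genes (5.96% above the sum and 6.01% below it), so that the set as a whole was near the background here. Its single effects summed to 0.97, and the combination stood at 0.21, a departure of -0.76 ± 0.191 SE (95% interval -1.16 to -0.37, edgeR adjusted p = 0.0148). That departure was not called without DMSO library C (-0.68, edgeR adjusted p = 0.0534) or without tazemetostat library B (-0.69, edgeR adjusted p = 0.0615). For ETV4 the sum was 0.92 and the combination 0.92, with an interval of the departure of -0.29 to 0.29. For DUSP4 the sum was -0.645 and the combination -0.62 (interval of the departure -0.165 to 0.22), and for ETV1 they were 2.825 and 2.53 (-0.69 to 0.10). SPRY1 (0.26, edgeR adjusted p = 0.0758), SPRED1 (0.40, edgeR adjusted p = 0.117) and DUSP6 (0.33, edgeR adjusted p = 0.102) lay above the sum and did not pass. At an unadjusted p under 0.05 were 4 of the 10 genes and 29.2% of all tested genes. Without the A library of every group, SPRY1 (0.30, edgeR adjusted p = 0.0179), SPRY2 (0.34, edgeR adjusted p = 0.0448) and SPRED1 (0.69, edgeR adjusted p = 0.000743) passed together with SPRY4, and 37.3% of all tested genes did.

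**Figure D3:**
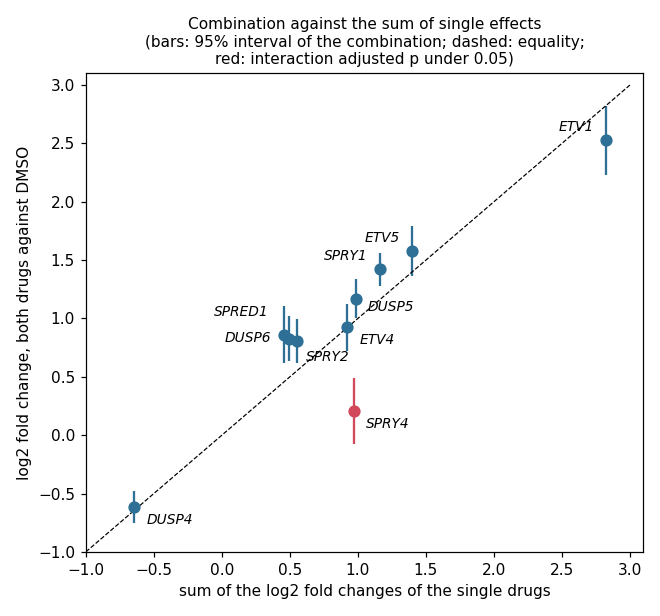
Log2 fold change of the combination against DMSO (y axis, with 95% intervals) against the sum of the log2 fold changes of the single drugs (x axis) for the 10 genes; the dashed line marks equality. SPRY4, in red, lies below the line at a sum of 0.97 and a combination of 0.21, and ETV4 and DUSP4 lie on it.

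Genes that surround this set in the pathway were counted in the same way. Of the 12 tested genes of the RAS, RAF, MEK and ERK cascade, 3 rose and 3 fell with ipatasertib, 4 rose and 8 were not called with tazemetostat, and 5 rose and 3 fell with the combination. The shares called were 50%, 33.3% and 66.7%, against 47.1%, 47.2% and 64.4% of all tested genes. Their median log2 fold changes were 0.055, 0.086 and 0.069, against 0.004, 0.009 and 0.03 over all tested genes. The scaffold gene KSR1 was at 0.535 ± 0.183 CPM with DMSO and rose in all 3 comparisons (0.90, 1.28 and 1.51), and HRAS fell with ipatasertib (-0.665) and with the combination (-0.71). Among 17 genes that switch RAS on or off, 8 rose and 2 fell with ipatasertib, 4 rose and 2 fell with tazemetostat, and 10 rose and 3 fell with the combination. That is 58.8%, 35.3% and 76.5% called, with medians of 0.271, 0.098 and 0.333. RASAL2, which inactivates RAS, rose with ipatasertib (0.80), and the adaptor gene GAB1 rose in all 3 comparisons (0.57, 0.51 and 1.10). EGFR, a receptor that feeds the cascade, was at 1060 ± 52.8 CPM with DMSO, 2260 ± 323 with ipatasertib, 1250 ± 93.2 with tazemetostat and 2240 ± 192 in the combination group (SD, n = 3). EGFR was taken from the basal markers and not from these lists, and a link to the 10 genes was not tested.

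The close relatives of the inhibitors did not all move alike. SPRED2, the paralog of SPRED1, was at 59.3 ± 0.673 CPM with DMSO, 97.8 ± 3.05 with ipatasertib, 55.9 ± 0.63 with tazemetostat and 106 ± 0.304 in the combination group (SD, n = 3). It rose with ipatasertib (0.72 ± 0.061 SE, edgeR adjusted p = 4.1e-09) and with the combination (0.83, edgeR adjusted p = 9.71e-11), and its change with tazemetostat was -0.085 (edgeR adjusted p = 0.27). SPRED3 was not called in any of these, and SPRY3 was below the filter. Of 8 other phosphatase genes of MAP kinases, 2 rose with ipatasertib (DUSP1, 0.41, and DUSP2, 0.365) and 6 were not called. With tazemetostat 5 of the 8 rose and 2 fell, and with the combination 5 rose and 1 fell. The shares called in the 3 comparisons were 25%, 87.5% and 75%, against 47.1%, 47.2% and 64.4% of all tested genes. DUSP9 (2.49, on 7 to 20 reads per DMSO library), DUSP10 (0.93) and DUSP8 (0.86) rose most with tazemetostat. DUSP10, which acts on p38 and JNK, was at 6.45 ± 0.76 CPM with DMSO, 5.33 ± 0.0874 with ipatasertib, 12.4 ± 0.542 with tazemetostat and 15.4 ± 1.2 in the combination group (SD, n = 3).

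Of 19 other tested ETS factors, out of 24 listed, 5 rose and 2 fell with ipatasertib and 11 rose and 3 fell with tazemetostat. With the combination 8 rose and 5 fell. The shares called were 36.8%, 73.7% and 68.4%, against 47.1%, 47.2% and 64.4% of all tested genes. ETV3 (0.91) and ELK3 (0.84) rose with ipatasertib, and ELF5, a factor of the secretory mammary lineage, fell with it (-1.25) and rose with tazemetostat (1.10). ERG had 0 reads in the DMSO and ipatasertib libraries, 5 to 13 reads in the tazemetostat libraries and 9 to 10 in the combination libraries. CIC itself was at 65.3 ± 1.49 CPM with DMSO, 67.2 ± 7.59 with ipatasertib, 80.5 ± 17.2 with tazemetostat and 57.9 ± 9 in the combination group (SD, n = 3). Its change with ipatasertib was 0.04 (edgeR adjusted p = 0.796), and with tazemetostat it was called higher (0.305, edgeR adjusted p = 0.0405) although the groups overlapped. Of the 7 genes of Capicua, its partners and the COP1 ligase that marks PEA3 proteins for degradation, 3 rose and 1 fell with ipatasertib. With tazemetostat 2 rose and 1 fell, and with the combination 2 rose and 1 fell. The shares called were 57.1%, 42.9% and 42.9%, against the 47.1%, 47.2% and 64.4% of all tested genes. RFWD2, which encodes COP1, fell with ipatasertib (-0.215, edgeR adjusted p = 0.0194).

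Of 28 other genes known to follow ERK, 12 rose and 3 fell with ipatasertib, 7 rose and 8 fell with tazemetostat, and 12 rose and 7 fell with the combination. The medians were 0.15, -0.11 and 0.195. The shares called were 53.6%, 53.6% and 67.9%, near the 47.1%, 47.2% and 64.4% of all tested genes. With ipatasertib IL8 (1.48), MAFF (1.41) and EGR2 (1.40 ± 0.594 SE) rose most, but EGR2 had only 1 to 5 reads per DMSO library and 4 to 9 with ipatasertib. With 11 to 15 reads in the tazemetostat libraries and 13 to 22 in the combination libraries, EGR2 rested on few reads throughout. PHLDA2 fell most of the 28 with ipatasertib (-0.81), and it also fell with tazemetostat (-0.73) and with the combination (-1.75). IER3 fell with tazemetostat (-1.36). IER3, an early response gene, was at 353 ± 21.3 CPM with DMSO, 755 ± 27.9 with ipatasertib, 137 ± 6.03 with tazemetostat and 331 ± 37.1 in the combination group (SD, n = 3). In a published 10-gene score of MAPK activity, which holds 6 of the genes described above, 6 rose and 1 fell with ipatasertib, 3 rose and 6 fell with tazemetostat, and 7 rose and 1 fell with the combination. The 6 that fell with tazemetostat are the 6 already described. Of the 4 remaining genes, EPHA4 rose with ipatasertib (0.82), and CCND1 (0.14), EPHA2 (0.20) and PHLDA1 (-0.01) were not called. With tazemetostat CCND1, the gene of cyclin D1 (0.60), EPHA4 (0.525) and PHLDA1 (0.19) rose, and EPHA2 was not called (-0.14, edgeR adjusted p = 0.217).

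**Figure D4:**
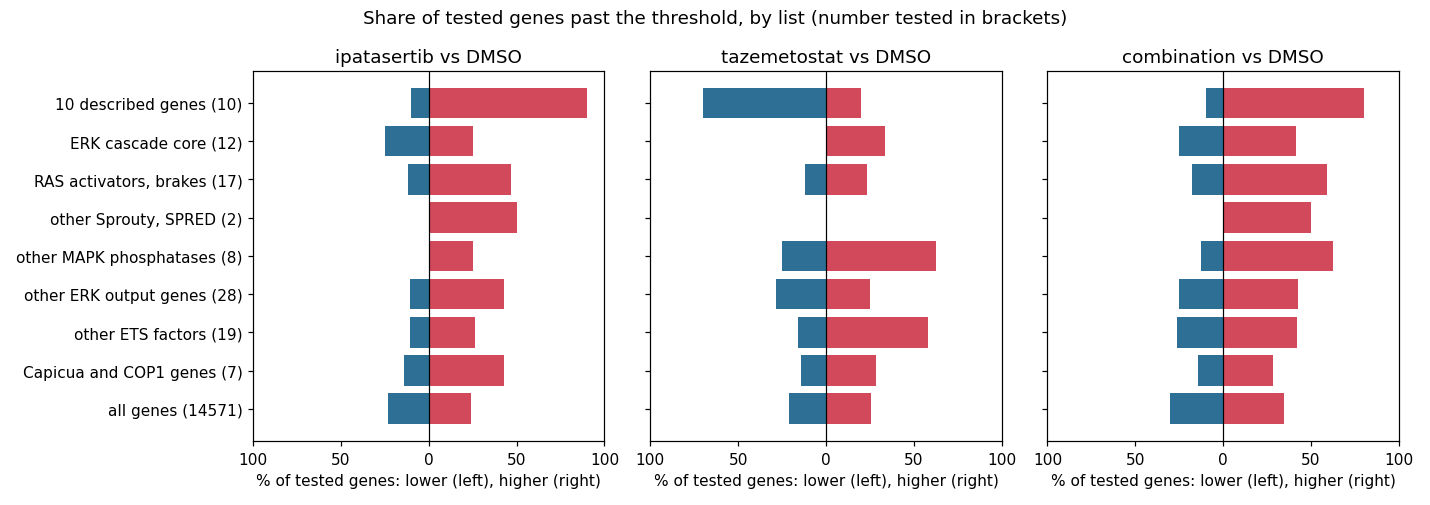
Percentage of tested genes called higher (red, to the right) and lower (blue, to the left) against DMSO with each treatment, for the 10 genes, for 7 lists of related genes and for all 14571 tested genes. For the 10 genes 9 are higher with ipatasertib and 7 lower with tazemetostat.

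Profiles over the 12 libraries were compared as root mean square differences in log2 CPM after centring each gene on its own mean, as a description of libraries that share their groups. Within the set, the closest pairs were SPRED1 with DUSP6 (0.16) and SPRY2 with DUSP5 (0.17), and ETV4 with ETV5 differed by 0.296. Among 10970 other genes with a mean of at least 5 CPM, ETV1 was most like CPVL (0.119), which was at 28.5 ± 0.18 CPM with DMSO, 76.7 ± 5.79 with ipatasertib, 51 ± 3.56 with tazemetostat and 142 ± 4.57 in the combination group (SD, n = 3). ETV4 was most like LOC100506548 (0.307) and THBS1 (0.336), and ETV5 like ALPP (0.214). SPRY1 was most like CADPS2 (0.058) and SPRY2 like TMEM156 (0.121). For SPRY4 the nearest was CES1 (0.198), at 9.7 ± 0.268 CPM with DMSO, 30.1 ± 1.02 with ipatasertib, 4.65 ± 0.324 with tazemetostat and 9.26 ± 0.482 in the combination group (SD, n = 3). SPRED1 was most like CLK4 (0.109), DUSP4 like NCL (0.054), DUSP5 like PYGL (0.111) and DUSP6 like NTN4 (0.088).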

How the data were processed

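Each of the 12 libraries has a deposited table of raw counts by gene symbol. The submitters' processing notes name STAR, SAMtools, HTSeq, DESeq2 and hg19 but no version, and the sources used here do not give the annotation or strand setting. ETV4, ETV5, SPRY4 and DUSP6 each overlap at least 1 gene on the other strand in GENCODE v29. ETV5 also overlaps the protein-coding gene DGKG and the RNA gene RF00017 on its own strand. The counts of these members are uncertain to that extent. Totals exclude 5 lines per table that are not genes. Genes held 66.3%, 63.2%, 66.2% and 61.9% of the counted total with DMSO, ipatasertib, tazemetostat and the combination. A deposited table of normalized values was not used.

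Tests used edgeR 4.0.16 under R 4.3.3. Genes passed filterByExpr at a minimum count of 10, TMM factors were applied, and 1 robust quasi-likelihood model with a term for each group (8 residual degrees of freedom) was fitted to all libraries, with Benjamini-Hochberg adjustment over 14571 genes for each of 6 comparisons. The SE comes from the same fit. A level of 3 counts corresponds to 0.106 to 0.227 CPM, a limit for counting error only. The procedure was checked on simulated counts, with rises set in a small share of genes of the ipatasertib group and the same spread for every gene. That setting held far fewer changed genes and no libraries as unlike as A, so it cannot tell how errors are controlled here. The alternatives tried were DESeq2 1.42.0, library totals, RLE factors, 2 other filters, the groups of a comparison alone, a replicate block, each library left out, and all A libraries left out. Sequences are RefSeq's (GRCh38.p14). No gene coordinates on hg19 are given. Likeness was computed on log2 of CPM plus 0.5. Named genes were the 10 genes, genes among the 3 largest called changes without overlap per list, and the nearest profiles. CIC, RFWD2, EGFR, CCND1, EPHA2, EPHA4, PHLDA1, SPRED3 and those called for the interaction were named after their values were seen. The members and lists were chosen with earlier results of these data known.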

Additional observations from a re-analysis of the deposited data

Results flagged for a closer look

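For SPRY4 the interaction term passed the threshold, as it did for 12% of all tested genes and for 1 of the 10 genes described (10%). Ipatasertib raised SPRY4 by a log2 fold change of 1.70 without tazemetostat and by 0.93 with it, and the interaction term was -0.763 ± 0.191 SE (edgeR adjusted p = 0.0148). The call was lost without DMSO library C (edgeR adjusted p = 0.0534) and without tazemetostat library B (edgeR adjusted p = 0.0615). Over the 19 alternatives that give it, the term lay between -0.864 and -0.659, with edgeR or DESeq2 adjusted p from 0.00257 to 0.0615.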

How the results depend on the processing

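Over the 20 alternatives the 60 member comparisons gave 1190 values, of which 1151 kept direction and side of the threshold, 20 gained a call, 6 lost one and 13 changed sign. The sign changes were all in differences that were not called. The departure of ETV4 from additivity (0.001) was -0.054 with library totals, -0.011 without a filter, -0.007 with the filter of 50 counts in 3 libraries, -0.017 with the replicate block, -0.143 without all A libraries, and -0.104 to 0.062 leaving out 1 library. That of DUSP4 (0.027) was -0.027 with library totals and -0.026 to 0.069 leaving out 1 library, and DUSP6 in the combination against ipatasertib (0.035) was -0.006 without all A libraries and -0.002 to 0.069 leaving out 1 library.

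The count of members called for the interaction (1, with 0 higher) was 2 with DESeq2 (1 higher), 2 without a filter (1 higher) and 4 without all A libraries (3 higher). Leaving out 1 library it was 0 to 4, with 0 to 3 higher and 0 to 1 lower. The share of all genes called for the interaction (12%) was 18.2% with DESeq2, 6.95% with the replicate block, 37.3% without all A libraries and 4.57 to 24.9% leaving out 1 library. The count lower in the combination against tazemetostat (1) was 0 to 1 leaving out 1 library. In the other comparisons the counts of members stayed within 1.5 times. The cause of these shifts was not tested. Same-letter libraries deviated together with a correlation over 0.1 in 1 of 3 pairs of DMSO and ipatasertib and 1 of 3 of ipatasertib and combination, and in 0 of 3 in the other group pairs. The own letter correlated best in 3 of 3 pairs of DMSO and ipatasertib and in 0 or 1 of 3 elsewhere. These correlations cannot tell whether libraries with the same letter were handled together. The replicate block changed no call of a member. Fitting the groups of a comparison alone gives no separate value for the interaction. The combination libraries have the fewest counts, and what depth limits was not ranked.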

Other observations

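MYC, a growth-promoting transcription factor that is also a target of ERK signalling, was at 69.3 ± 2.77 CPM with DMSO, 101 ± 2.97 with ipatasertib, 39.7 ± 2.24 with tazemetostat and 30.1 ± 1.78 in the combination group (SD, n = 3). It rose with ipatasertib (log2 fold change 0.55, edgeR adjusted p = 1.02e-06) and fell with tazemetostat (-0.80) and with the combination (-1.20). Its departure from the sum of the single effects was -0.94 ± 0.102 SE (edgeR adjusted p = 1.41e-05), the same sign as that of SPRY4. KLF6 departed upward (0.58, edgeR adjusted p = 0.00151), and HMGA1 downward (-0.42, edgeR adjusted p = 0.0409). These 3 of the 28 other ERK output genes make 10.7%, near the 12% of all tested genes called for the interaction. Among the other ETS factors SPDEF, a luminal and secretory factor, fell with ipatasertib (-0.70) and with the combination (-1.19). It was at 0.08 with tazemetostat (edgeR adjusted p = 0.414), and departed by -0.57 (edgeR adjusted p = 0.00359). Of the 19 other tested ETS factors, 1 departed upward and 2 downward, a share of 15.8% against the 12% of all tested genes.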
